A study of Mus musculus with 13 samples.

Results

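The genes described here encode complement components, coagulation factors and other proteins that the liver secretes into blood plasma. They were taken by symbol from a fixed list of 45 genes, and all 45 were found among the 27141 genes of the tables. All 45 also passed the filter on low counts, which kept 19884 genes for testing. They were sorted into 10 groups by the known roles of their proteins.

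Complement is a cascade of plasma proteases and opsonins that marks microbes and damaged cells and can end in a membrane attack complex. Coagulation is a second protease cascade, in which thrombin converts fibrinogen to fibrin, plasmin dissolves the clot again, and inhibitors hold each step in check. Hepatocytes make most of these proteins, several of which are acute phase proteins whose synthesis in the liver responds to interleukin-6, and their expression is widely used as a sign of the differentiated hepatocyte state.

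RNA was sequenced from dHeps, damaged hepatocytes isolated from the livers of wild-type mice with chronic injury by carbon tetrachloride (CCl4), so every group carried this injury and no culture of uninjured hepatocytes is compared here. The cells were kept for 16 days in serum-free Hepatocyte Maintenance Medium with the solvent DMSO, with 5 compounds together (5C), or with 5C from which a single compound was removed. The compounds were the ROCK inhibitor GSK429286A (removed in 5C-G), the protein kinase D inhibitor CID755673 (removed in 5C-C), the AMPK activator ETC-1002 (removed in 5C-E), the adenylate cyclase activator forskolin (removed in 5C-F) and Salidroside, a plant glycoside (removed in 5C-S). There were 13 libraries in 7 groups, a single library for 5C-S and 2 for every other group. The study's methods describe young adult mice at the start of the injections. They count separate biological replicates, but neither they nor the labels say whether the libraries of a group came from separate animals or cultures of 1 isolation. The p-values measure only the spread between libraries within groups, taken for each gene over all groups together. Libraries are called A and B within a group, and the letters pair nothing across groups. Levels are given as FPKM, which scales reads to gene length and library depth, in the order A and B.

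Total counts ran from 30195867 to 45491932 per library, and the share that fell on the 45 genes was lowest in 5C-G A (0.752%) and highest in 5C-C A (1.71%). Of the 8 hepatocyte markers fixed for this work, 7 were found and none was at 0, with summed levels of 10460 to 11723 FPKM in DMSO, 10658 to 10696 in 5C, 6672 to 7950 in 5C-G, 4485 to 4940 in 5C-C, 3069 to 3564 in 5C-E and 16646 to 20986 in 5C-F. In 5C-S their sum was 6903 FPKM. Albumin (Alb) made up most of this sum. The 8 macrophage markers summed to 674 to 680 FPKM in DMSO, 103 to 108 in 5C, 553 to 909.6 in 5C-G, 183 to 205 in 5C-C, 136 to 139 in 5C-E and 295 to 320.1 in 5C-F, so the cultures were not hepatocytes alone. The 8 stellate cell and fibroblast markers summed to 794 to 1768 FPKM over the libraries, and the 4 cholangiocyte markers to 110 to 300. The 6 endothelial markers summed to 9.32 to 27.9 FPKM, mostly Kdr and Ehd3, while Pecam1 and Cdh5 did not exceed 0.262 FPKM. In such bulk samples, fewer cells of a type and less RNA per cell cannot be told apart.

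The 45 genes differed widely in level. Averaged over the 13 libraries, 10 genes lay above 100 FPKM, 16 between 10 and 100, and 19 below 10, of which 5 were below 1. Hemopexin (Hpx), the plasma carrier of heme, led with 760.7 FPKM. It was followed by C3, the central complement protein, with 703.7 FPKM and by Ahsg (fetuin-A, an inhibitor of calcification) with 635.6 FPKM. At the other end stood Klkb1 (plasma prekallikrein) with 0.241 FPKM and Cfb (complement factor B) with 0.198 FPKM. The summed level of all 45 was 3528 to 3648 FPKM in DMSO and 4627 to 4928 in 5C. It was 5485 to 6015 in 5C-C, 5892 to 5932 in 5C-F and 4912 in 5C-S, but 3712 to 3746 in 5C-E and 2763 to 3320 in 5C-G. The sum was therefore lower than in both 5C libraries in 5C-G and 5C-E, and higher in 5C-C and 5C-F. It is weighted to the most abundant genes. In 5C-C, Hpx stood at 1393 and 1368 FPKM, against 600.1 and 675 in 5C. Of the 45 genes, 26 lay below both 5C libraries in 5C-C and 9 above, where 38.9% and 27.3% of all genes did.

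**Figure D1:**
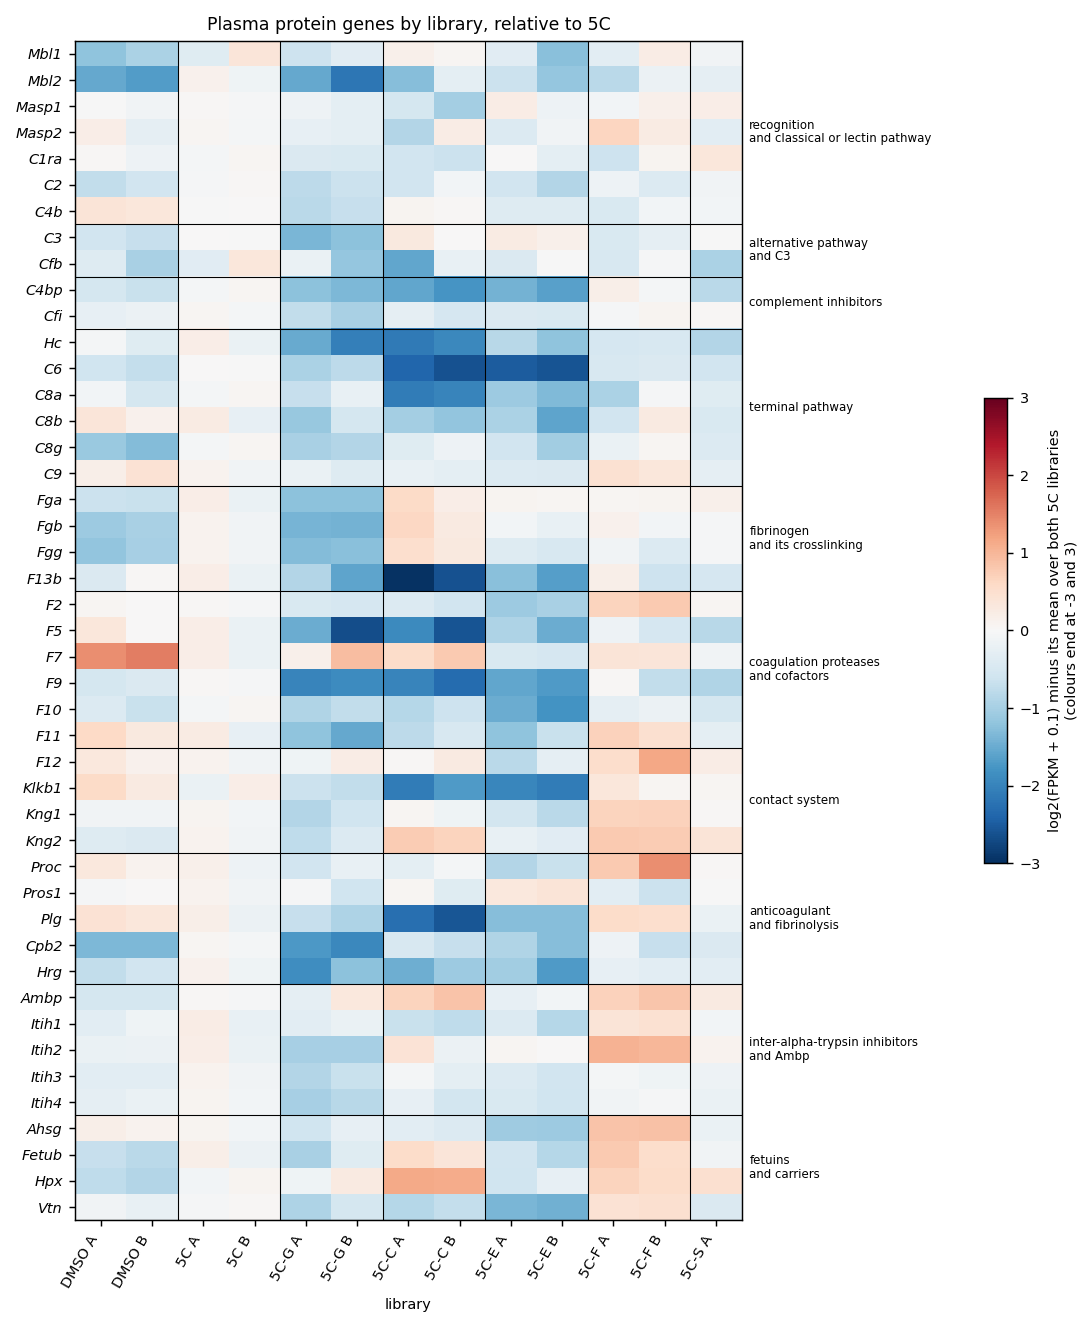
Heat map of the 45 genes (rows, by role) in the 13 libraries (columns), coloured by log2(FPKM + 0.1) minus its mean over both 5C libraries. Blue columns dominate for 5C-G and 5C-E, whereas the 5C-C columns hold dark blue rows such as Plg, C6 and Klkb1 beside red rows such as Hpx and the fibrinogen genes.

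Several of the genes are neighbours in the mouse genome (GRCm39, annotation GENCODE vM39). The 3 fibrinogen genes lie within 42.14 kb on chromosome 3 (82915030 to 82957170). Ahsg, Fetub, Hrg, Kng2 and Kng1 lie within 190.8 kb on chromosome 16 (22710027 to 22900840), and Itih4, Itih3 and Itih1 within 56.87 kb on chromosome 14 (30608378 to 30665251). Upstream windows of 250 bases, ending just before the start site of a gene's reference transcript, were searched on both strands for short motifs of liver and acute phase transcription factors. A C/EBP-like motif (TTGCNNAA) was found in 15 of the 45 windows (33.3%), against 9.34% of the 21757 windows of protein-coding genes, and CTGGGAA, a motif of the interleukin-6 response, in 8 windows (17.8%), against 9.75%. The HNF4 core CAAAGTCCA was found in none of the 45 windows, against 0.372% of all. A match is only a match of letters.

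The windows of 4 genes that moved in opposite directions without the protein kinase D inhibitor are shown in the sense of the gene, 5′ to 3′, with every match to one of these motifs, on either strand, in capitals. Fgb, Fgg and Hpx had fitted values above 5C in 5C-C, and C6 fell there. The positions are chr3:82957171-82957420 (minus strand) for Fgb, chr3:82914781-82915030 (plus strand) for Fgg, chr7:105249345-105249594 (minus strand) for Hpx and chr15:4756275-4756524 (plus strand) for C6.
Fgb: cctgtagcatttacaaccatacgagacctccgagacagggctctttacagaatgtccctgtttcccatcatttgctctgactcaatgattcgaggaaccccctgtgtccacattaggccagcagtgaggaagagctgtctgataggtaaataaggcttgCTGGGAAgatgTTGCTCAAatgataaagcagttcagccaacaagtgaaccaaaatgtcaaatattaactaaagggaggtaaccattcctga
Fgg: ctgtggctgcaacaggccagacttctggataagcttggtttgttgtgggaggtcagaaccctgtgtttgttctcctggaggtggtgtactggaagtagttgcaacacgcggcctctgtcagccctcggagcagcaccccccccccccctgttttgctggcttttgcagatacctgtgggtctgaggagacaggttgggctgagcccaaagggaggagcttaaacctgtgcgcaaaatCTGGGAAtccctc
Hpx: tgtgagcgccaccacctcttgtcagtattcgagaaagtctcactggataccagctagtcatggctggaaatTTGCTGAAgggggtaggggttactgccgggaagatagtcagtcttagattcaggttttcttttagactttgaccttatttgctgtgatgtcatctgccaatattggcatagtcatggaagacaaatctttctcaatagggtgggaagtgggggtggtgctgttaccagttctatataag
C6: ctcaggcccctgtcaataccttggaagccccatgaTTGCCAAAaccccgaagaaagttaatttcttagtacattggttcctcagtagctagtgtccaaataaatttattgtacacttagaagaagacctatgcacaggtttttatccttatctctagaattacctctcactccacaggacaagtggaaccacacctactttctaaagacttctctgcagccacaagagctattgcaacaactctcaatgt

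Fgb held CTGGGAA at -91 to -85 from the start site and the C/EBP-like motif at -80 to -73. Fgg held CTGGGAA at -13 to -7. The C/EBP-like motif was found in Hpx at -179 to -172 and in C6 at -215 to -208.

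The first comparison asked how 5C changed these genes relative to the solvent. A gene was called changed when its edgeR adjusted p was under 0.05 and its fitted log2 fold change was above 1 or below -1. In 5C against DMSO, 4 of the 45 genes rose (Mbl2, Cpb2, C8g and Fgg) and F7 fell. Among all tested genes, 1.66% were called higher and 2.89% lower. The median log2 fold change of the 45 was 0.16. Without the fold limit, 8 genes were higher and 1 was lower at an adjusted p under 0.05, against 2.25% and 4.09% of all genes. FPKM in both 5C libraries exceeded both DMSO libraries for 25 of the 45 genes and lay below them for 8, where 34.9% and 24.4% of all genes did so, which is a description and no test. Of the 5 calls, Cpb2 alone was made under all 12 settings tried, and leaving out any single library of either group removed those of C8g and Mbl2. Only 2 genes were called without DMSO A or without 5C A, and 3 without 5C B. The 8 macrophage markers moved in the same comparison, with 6 called lower and a median log2 fold change of -3.01. Of the hepatocyte markers 1 was lower (median -0.03), of the stellate and fibroblast markers 1 was lower (0.13), of the cholangiocyte markers 1 was higher (0.38), and no endothelial marker was called (-0.52). The part of these markers in the results was not tested.

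Without the ROCK inhibitor, genes of 7 of the 10 roles fell. In 5C-G against 5C, 13 genes fell and none rose, where 5.64% of all tested genes were called lower and 7.47% higher. They were F5, F9, Mbl2, Hc, Cpb2, Hrg, F11, Fgb, C4bp, C3, Fgg, F13b and Fga. The median log2 fold change of the 45 genes was -0.68, and without the fold limit 23 genes were lower and none higher (11.5% and 14% of all genes). In FPKM, 37 of the 45 genes were lower in both 5C-G libraries than in either 5C library and none was higher in both, against 36% and 26.8% of all genes. Macrophage markers were higher in the same cultures (6 of 8 called, median log2 fold change 2.40). Of 7 hepatocyte markers 4 were lower and 2 higher (median -1.03), of 4 cholangiocyte markers 2 were lower (median -0.36), of 6 endothelial markers 2 were lower (median -0.32), and of 8 stellate and fibroblast markers 1 was higher and 1 lower (median -0.20). The part of these markers was not tested.

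Removal of the protein kinase D inhibitor gave calls in both directions. In 5C-C against 5C, Hpx rose and 10 genes fell (Klkb1, C6, F13b, C8a, Plg, F5, F9, Hc, C4bp and Hrg), where 9.65% of all tested genes were called higher and 10.5% lower. The median was -0.22. A further 7 genes were higher at an adjusted p under 0.05 without reaching the fold limit, namely Ambp, Kng2, F7, Fgb, Fetub, Fgg and Fga, with log2 fold changes from 0.56 to 0.93. In all, 8 were higher and 13 lower without the fold limit, against 17.2% and 18.6% of all genes, so the share of higher genes was near that of all genes. In FPKM, 9 of the 45 genes were above and 26 below both 5C libraries, against 27.3% and 38.9%. Of the 7 hepatocyte markers, 4 were called lower (Alb, Apob, Cps1 and Asgr1) and none higher. Of 8 macrophage markers 2 were higher and 1 lower (median 0.24), of 4 cholangiocyte markers 1 was higher (median 0.75), of 8 stellate and fibroblast markers 1 was higher and 1 lower (median -0.20), and of 6 endothelial markers 1 was lower (median -0.08). Their part in the members' differences was not tested.

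Without the AMPK activator every call was downward. In 5C-E against 5C, 14 genes fell and none rose, where 1.31% of all tested genes were called lower and 0.654% higher. They were Klkb1, C6, F9, F10, C4bp, F13b, Vtn, Hrg, Plg, F5, Cpb2, Ahsg, Hc and F2. Without the fold limit 15 were lower and none higher, against 1.76% and 1.18% of all genes. In FPKM, 36 of the 45 genes were below and 2 (C3 and Pros1) above both 5C libraries, against 21.7% and 32.9% of all genes. The median of the 45 genes was -0.79, and that of the 7 hepatocyte markers -0.99 with 3 called lower (Alb, Cps1 and Asgr1). No macrophage or cholangiocyte marker was called (medians 0.17 and 0.05), and of the stellate and fibroblast markers and of the endothelial markers 1 each was higher and 1 lower (medians 0.53 and 0.22). The part of these markers was not tested. Calls for F5 and F13b were lost on leaving out any single library of the 4 compared, and only 8 genes were called without 5C-E B, which also ended the calls of Cpb2, Hc, Hrg and Klkb1. Without 5C A, 9 genes were called.

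Removal of forskolin gave the fewest calls. In 5C-F against 5C, Proc and Itih2 rose and none fell, where 2.69% of all tested genes were called higher and 2.15% lower. A further 9 genes were higher at an adjusted p under 0.05 with log2 fold changes from 0.61 to 0.97, which made 11 higher and none lower without the fold limit, against 5.69% and 4.98% of all genes. The median of the 45 was 0.12. In FPKM, 17 of the 45 genes were above both 5C libraries and 11 below, against 22.2% and 33.7% of all genes. Neither call was made without 5C B, and that of Proc was also lost without 5C-F B and with an offset for length and GC content. Macrophage markers were again higher (5 of 8 called, median 1.49). Of 7 hepatocyte markers 1 was higher (median 0.44), of 4 cholangiocyte markers 1 was higher (median 0.47), of 8 stellate and fibroblast markers 1 was lower (median -0.28), and no endothelial marker was called (median -0.24). Their part was not tested. The 4 removals share the 5C libraries, so these comparisons are not independent of each other.

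**Figure D2:**
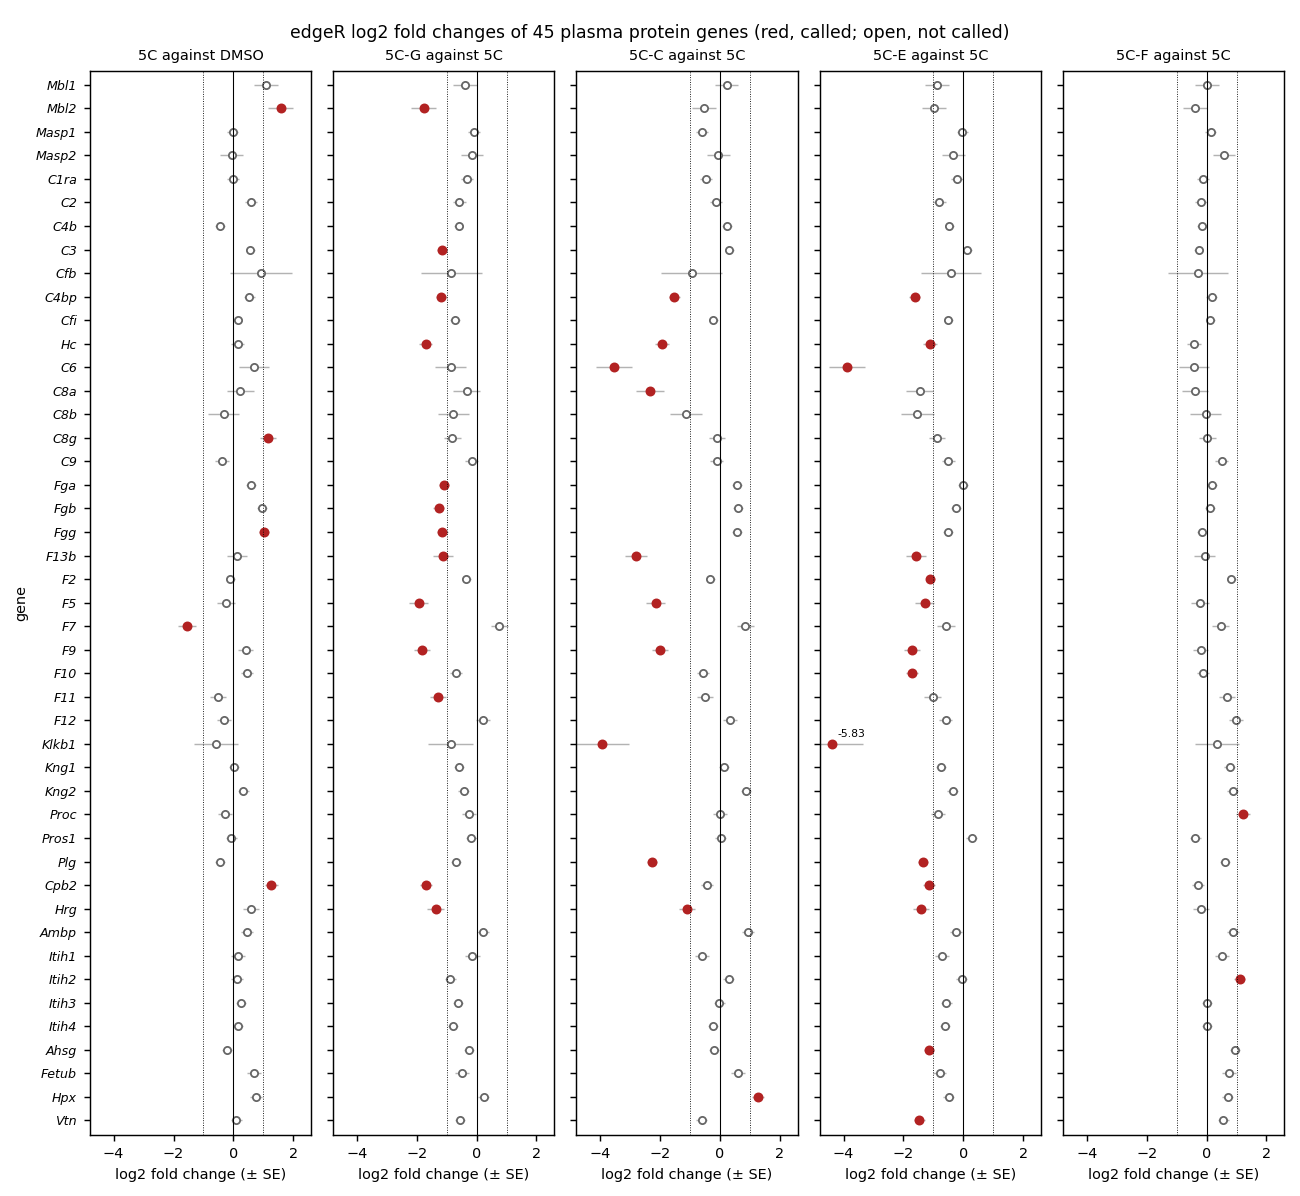
edgeR log2 fold changes (horizontal axis, points, with SE as bars) of the 45 genes in the 5 main comparisons, with called genes in red and dotted lines at the fold limit. The point of Klkb1 in 5C-E against 5C is drawn at the edge and labelled with its value, and the red points of the panels of 5C-G and 5C-E all lie to the left of 0.

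The fibrinogen genes behaved alike. Fga, Fgb and Fgg encode the 3 chains of fibrinogen, the precursor of fibrin. Fga was at 182 and 179.7 FPKM in DMSO, 325 and 249.996 in 5C, 121 and 122 in 5C-G, 427 and 327 in 5C-C, 301 and 297 in 5C-E, 297 and 303 in 5C-F, and 317 in 5C-S. Fgb was at 127 and 138 FPKM in DMSO, 291 and 249.6 in 5C, 103 and 100.2 in 5C-G, 415 and 323 in 5C-C, 253 and 231 in 5C-E, 294 and 254 in 5C-F, and 264 in 5C-S. Fgg was at 179 and 205 FPKM in DMSO, 439 and 382 in 5C, 165 and 172 in 5C-G, 584 and 502 in 5C-C, 314 and 294 in 5C-E, 381 and 308 in 5C-F, and 402 in 5C-S. All 3 were lowest in 5C-G, which did not overlap with any other group, and highest in 5C-C. Log2 fold changes for 5C against DMSO were 0.59 ± 0.17 (SE; adjusted p = 0.044) for Fga, 0.96 ± 0.17 (0.0012) for Fgb and 1.02 ± 0.17 (0.0009) for Fgg. Without the ROCK inhibitor they fell by 1.10 ± 0.17 (adjusted p = 0.00022), 1.27 ± 0.17 (5.7e-05) and 1.14 ± 0.17 (0.0002) against 5C. With an offset for length and GC content Fgb was at -0.86 and Fgg at -0.98, and without 5C A Fga was at -0.92, in each case no longer called. The 5C-G levels differed from DMSO by -0.51, -0.32 and -0.13, none called. In 5C-C the differences from 5C were 0.56, 0.61 and 0.57, below the fold limit but with adjusted p-values of 0.016, 0.0087 and 0.016, and against DMSO all 3 were called, at 1.15, 1.57 and 1.59.

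F13b, the carrier subunit of the clot-crosslinking factor XIII, followed another course. Its level was 3.69 and 5.12 FPKM in DMSO, 5.73 and 4.33 in 5C, 2.68 and 1.60 in 5C-G, 0.548 and 0.728 in 5C-C, 2.02 and 1.51 in 5C-E, 5.67 and 3.20 in 5C-F, and 3.47 in 5C-S. It was lowest in 5C-C, where the fibrinogen genes were highest. It fell by 2.80 ± 0.37 in 5C-C (adjusted p = 6.0e-05), by 1.58 ± 0.35 in 5C-E (0.018) and by 1.12 ± 0.34 in 5C-G (0.024), which was -0.73 and not called with an offset for length and GC content.

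**Figure D3:**
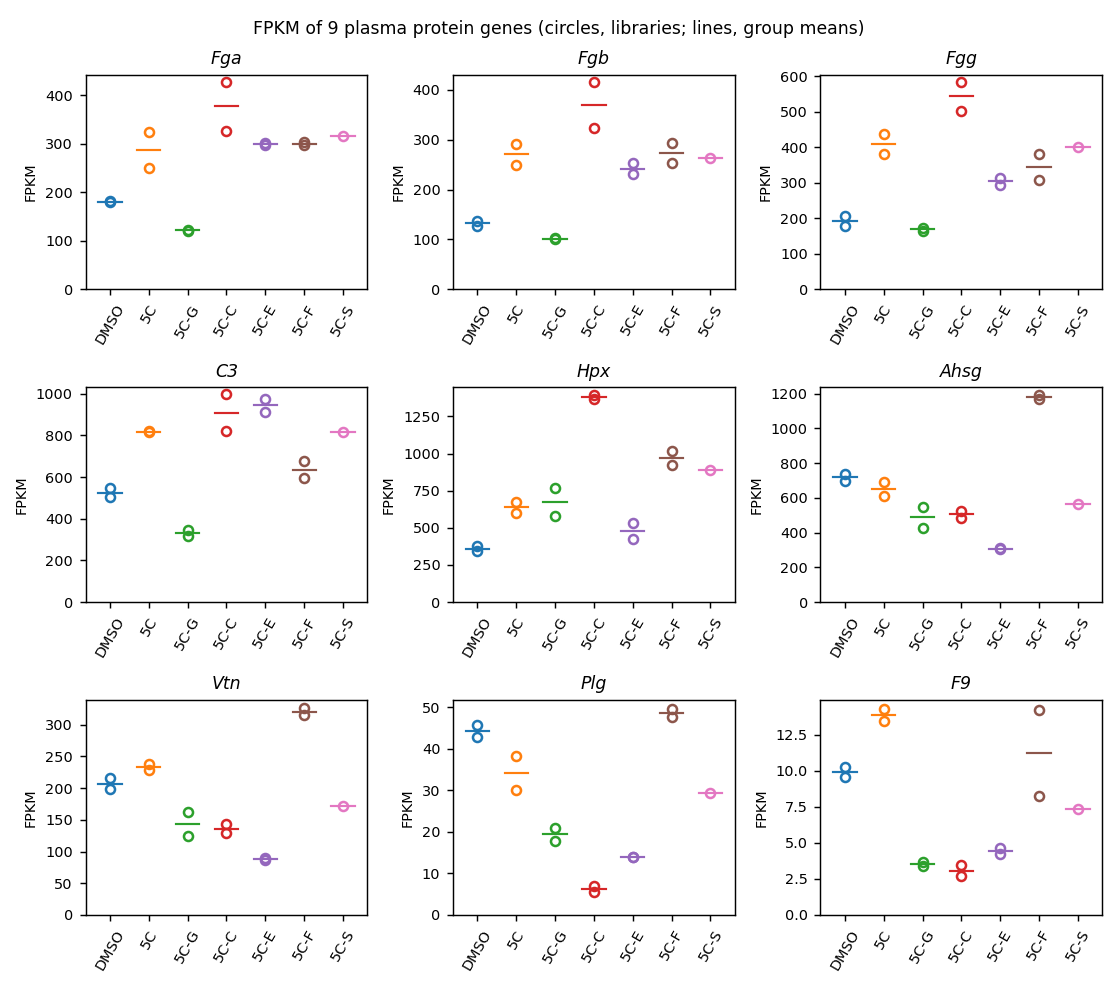
FPKM (vertical axes, linear and starting at 0) of 9 genes in the 7 groups, with circles for libraries and lines for group means. The 3 fibrinogen genes and C3 are lowest in 5C-G, Hpx is highest in 5C-C, and Ahsg and Vtn are highest in 5C-F and lowest in 5C-E.

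Among the recognition molecules and the classical and lectin pathways, 1 of 7 genes was called higher in 5C against DMSO (1.66% of all genes) and 1 lower in 5C-G against 5C (5.64%), and none in the other removals. The gene was Mbl2 each time, a mannose-binding lectin that recognises microbial sugars. Mbl2 stood at 1.88 and 1.71 FPKM in DMSO, 6.18 and 5.20 in 5C, 1.88 and 1.18 in 5C-G, 2.28 and 4.63 in 5C-C, 3.61 and 2.47 in 5C-E, 3.18 and 4.98 in 5C-F, and 4.65 in 5C-S. Both 5C libraries exceeded all others, and the 5C-C libraries differed widely from each other. It rose by 1.59 ± 0.42 with 5C (adjusted p = 0.029) and fell by 1.77 ± 0.42 in 5C-G (0.0056). Its paralog Mbl1 was at 1.36 and 1.63 FPKM in DMSO, 2.52 and 4.19 in 5C, 2.08 and 2.55 in 5C-G, 3.64 and 3.37 in 5C-C, 2.55 and 1.31 in 5C-E, 2.6 and 3.79 in 5C-F, and 3.02 in 5C-S. It had a log2 fold change of 1.09 ± 0.40 with 5C that missed the threshold (adjusted p = 0.14).

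C4b, whose product is cleaved to start the classical C3 convertase, was highest in the solvent. It stood at 209.8 and 201 FPKM in DMSO, 158 and 161 in 5C, 90.8 and 99.1 in 5C-G, 170.1 and 165 in 5C-C, 122 and 121 in 5C-E, 117 and 150.4 in 5C-F, and 151 in 5C-S. The 5C-G libraries were the lowest, with a log2 fold change against 5C of -0.61 ± 0.16 (adjusted p = 0.01) and a call against DMSO at -1.05 ± 0.16 (0.001). C1ra, a serine protease of the C1 complex, was at 47.9 and 42.6 FPKM in DMSO, 45.1 and 49.0 in 5C, 34.9 and 34.2 in 5C-G, 31.5 and 29.9 in 5C-C, 47.3 and 38.5 in 5C-E, 30.8 and 49.9 in 5C-F, and 59.5 in 5C-S. The 5C-F libraries spanned most of this range, and its adjusted p was at least 0.084 in the 5 main comparisons. C2 (8.31 to 15.8 FPKM), Masp1 (3.77 to 8.93) and Masp2 (0.879 to 2.70), proteases of the same pathways, were not called, and Masp1 had a log2 fold change of -0.60 in 5C-C (adjusted p = 0.018). Exons of other annotated genes cover 42.8% of the exon bases of C2 and 60.3% of those of Masp2, so their counts are uncertain.

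C3 was lowest without the ROCK inhibitor. Its level was 548 and 503 FPKM in DMSO, 822 and 816 in 5C, 316 and 347 in 5C-G, 997 and 820 in 5C-C, 976 and 913 in 5C-E, 597 and 675 in 5C-F, and 817 in 5C-S. The 5C-G libraries lay below all others and the DMSO libraries next. C3 fell by 1.16 ± 0.15 in 5C-G against 5C (adjusted p = 5.7e-05), and the call was made under all 12 settings. The direct comparisons of 5C-G with 5C-C (-1.47 ± 0.16) and with 5C-E (-1.30 ± 0.16) were called as well, with adjusted p-values of 8.7e-06 and 2.5e-05. With 5C its log2 fold change was 0.57 ± 0.15 (adjusted p = 0.033). Cfb, the protease of the alternative pathway convertase, was at 0.203 and 0.102 FPKM in DMSO, 0.211 and 0.403 in 5C, 0.242 and 0.0775 in 5C-G, 0.0351 and 0.241 in 5C-C, 0.194 and 0.293 in 5C-E, 0.183 and 0.286 in 5C-F, and 0.104 in 5C-S. These levels rest on counts of 3 to 35 per library, and it was not called. Exons of other genes cover 78.2% of its exon bases.

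The inhibitors of complement were Cfi, the protease factor I, and C4bp, which binds C4b. Cfi was at 94.4 and 99.8 FPKM in DMSO, 116 and 109 in 5C, 67.2 and 57.6 in 5C-G, 93.6 and 79.1 in 5C-C, 83.9 and 82.5 in 5C-E, 109 and 119.9 in 5C-F, and 115 in 5C-S. It was lowest in 5C-G, with a log2 fold change of -0.72 ± 0.15 in 5C-G (adjusted p = 0.0026). C4bp was at 6.33 and 5.76 FPKM in DMSO, 8.84 and 9.55 in 5C, 3.84 and 3.55 in 5C-G, 3.07 and 2.64 in 5C-C, 3.38 and 2.89 in 5C-E, 10.4 and 8.81 in 5C-F, and 5.22 in 5C-S. The libraries without G, C or E lay below all others. C4bp fell by 1.18 ± 0.19 in 5C-G, by 1.53 ± 0.19 in 5C-C and by 1.62 ± 0.19 in 5C-E, with adjusted p-values of 0.00026, 3.4e-05 and 6.8e-05. With an offset for length and GC content, C4bp was at -0.68 in 5C-G and -0.87 in 5C-C, no longer called, and at -1.31 in 5C-E.

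The terminal pathway assembles the membrane attack complex. Of its 6 genes, 3 fell in 5C-C (Hc, C6 and C8a), where 10.5% of all genes were called lower, 2 in 5C-E (Hc and C6), where 1.31% were, and 1 in 5C-G (Hc), where 5.64% were. The direct comparison of 5C-C with 5C-E called none of the 6, with a median log2 fold change of 0.36. Hc, which encodes C5, was at 6.04 and 4.88 FPKM in DMSO, 7.28 and 5.42 in 5C, 2.13 and 1.45 in 5C-G, 1.37 and 1.58 in 5C-C, 3.49 and 2.68 in 5C-E, 4.38 and 4.49 in 5C-F, and 3.39 in 5C-S. It fell by 1.71 ± 0.23 in 5C-G (adjusted p = 6.8e-05), by 1.94 ± 0.23 in 5C-C (2.9e-05) and by 1.11 ± 0.23 in 5C-E (0.011). The order of these removals followed 5C-C and 5C-G below 5C-E, and the direct comparison of 5C-C with 5C-E gave -0.83 ± 0.23 (adjusted p = 0.012) without a call.

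C6, the next component after C5, was a low gene that nearly vanished in 2 groups. Its counts were 65 and 50 in DMSO, 98 and 87 in 5C, 8 and 8 in 5C-C, 8 and 6 in 5C-E, 76 and 86 in 5C-F, and 62 in 5C-S. Per read total this was 7.33% of the 5C level in 5C-C (95% exact interval 4.11 to 12.2) and 7.04% in 5C-E (3.78 to 12.1), intervals that cover counting error only. The fitted log2 fold changes were -3.55 ± 0.59 (adjusted p = 0.00027) and -3.88 ± 0.60 (0.0011). The 5C-G libraries held 42 and 56 counts and were not called against 5C (-0.87 ± 0.51, adjusted p = 0.24).

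The subunits of C8 did not move as a unit. C8a fell by 2.34 ± 0.48 in 5C-C (adjusted p = 0.0012), and was at 1.04 and 0.741 FPKM in DMSO, 1.06 and 1.15 in 5C, 0.641 and 0.933 in 5C-G, 0.182 and 0.205 in 5C-C, 0.468 and 0.379 in 5C-E, 0.526 and 1.07 in 5C-F, and 0.830 in 5C-S. C8b, its neighbour on chromosome 4, was at 1.25 and 1.05 FPKM in DMSO, 1.15 and 0.780 in 5C, 0.379 and 0.624 in 5C-G, 0.416 and 0.362 in 5C-C, 0.442 and 0.253 in 5C-E, 0.609 and 1.17 in 5C-F, and 0.668 in 5C-S. In 5C-C it had a log2 fold change of -1.14 ± 0.53 that missed the threshold (adjusted p = 0.11). C8g, which lies on chromosome 2, was at 3.37 and 2.92 FPKM in DMSO, 7.08 and 7.70 in 5C, 3.71 and 3.96 in 5C-G, 5.69 and 6.61 in 5C-C, 4.95 and 3.53 in 5C-E, 6.43 and 7.67 in 5C-F, and 5.51 in 5C-S. It rose by 1.16 ± 0.28 with 5C (adjusted p = 0.015), and in 5C-C its log2 fold change was -0.10 ± 0.27. Exons of Fbxw5 cover 12.3% of its exon bases. C9, the pore-forming component, was at 5.82 and 7.003 FPKM in DMSO, 5.55 and 4.83 in 5C, 4.52 and 3.92 in 5C-G, 4.41 and 4.20 in 5C-C, 3.90 and 3.82 in 5C-E, 7.17 and 6.54 in 5C-F, and 4.29 in 5C-S. It was not called.

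Of the 6 coagulation proteases and cofactors, F7 was called lower for 5C against DMSO (2.89% of all genes). Against 5C, 3 fell in 5C-G (F5, F9 and F11), where 5.64% of all genes were called lower, 2 in 5C-C (F5 and F9), where 10.5% were, and 4 in 5C-E (F2, F5, F9 and F10), where 1.31% were. F9, the antihemophilic factor IX, was at 9.6 and 10.3 FPKM in DMSO, 14.3 and 13.5 in 5C, 3.42 and 3.70 in 5C-G, 3.45 and 2.73 in 5C-C, 4.62 and 4.23 in 5C-E, 14.2 and 8.28 in 5C-F, and 7.37 in 5C-S. The libraries lacking G, C or E were below every other library. It fell by 1.82 ± 0.26 (adjusted p = 0.0001), 2.01 ± 0.26 (4.9e-05) and 1.72 ± 0.26 (0.00075), and all 3 calls were made under all 12 settings, at -1.26 in 5C-C with the offset. The removals did not differ from each other by a call, with log2 fold changes of -0.29 ± 0.26 between 5C-C and 5C-E and 0.19 ± 0.26 between 5C-G and 5C-C.

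F5, the cofactor of factor Xa, was at 8.73 and 6.94 FPKM in DMSO, 7.86 and 5.99 in 5C, 2.37 and 0.998 in 5C-G, 1.75 and 1.05 in 5C-C, 3.59 and 2.37 in 5C-E, 6.19 and 4.78 in 5C-F, and 3.79 in 5C-S. It fell by 1.94 ± 0.32 in 5C-G (adjusted p = 0.00041), by 2.15 ± 0.33 in 5C-C (0.00014) and by 1.29 ± 0.31 in 5C-E (0.033). It also fell in each of these against DMSO, by 2.19, 2.41 and 1.54. F11, the factor XI of the intrinsic pathway, was at 6.73 and 4.72 FPKM in 5C and 2.40 and 1.87 in 5C-G, and fell by 1.29 ± 0.28 there (adjusted p = 0.0028).

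F2 and F10 were called against 5C in 5C-E and in no other removal. F2, prothrombin, was at 73.3 and 71.1 FPKM in DMSO, 72.1 and 69.7 in 5C, 51.6 and 50.1 in 5C-G, 52.9 and 47.7 in 5C-C, 33.1 and 36.3 in 5C-E, 112 and 121.5 in 5C-F, and 73.4 in 5C-S. The 5C-E libraries were the lowest and those of 5C-F the highest, with no overlap. F2 fell by 1.10 ± 0.15 in 5C-E (adjusted p = 0.00037), and the direct comparison of 5C-C with 5C-E gave 0.77 ± 0.15 (0.0016), below the fold limit. F10, the factor X that F9 activates, was at 21.8 and 18.3 FPKM in DMSO, 27.6 and 30.4 in 5C, 15.4 and 17.2 in 5C-G, 16.0 and 18.6 in 5C-C, 10.3 and 8.31 in 5C-E, 24.1 and 25.7 in 5C-F, and 20.2 in 5C-S. It fell by 1.71 ± 0.20 in 5C-E (adjusted p = 6.3e-05), and it was called lower in 5C-E than in 5C-C (by 1.14 ± 0.19) and than in 5C-G (by 1.02 ± 0.19).

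F7, the protease that starts the extrinsic pathway with tissue factor, lies next to F10. F7 was at 10.6 and 11.7 FPKM in DMSO, 4.57 and 3.45 in 5C, 4.43 and 7.67 in 5C-G, 5.88 and 6.93 in 5C-C, 2.87 and 2.77 in 5C-E, 5.21 and 5.16 in 5C-F, and 3.66 in 5C-S. Every library with any of the compounds lay below both DMSO libraries. It fell by 1.55 ± 0.30 with 5C (adjusted p = 0.0026), a call lost without 5C B. F10 had a log2 fold change of 0.46 ± 0.19 there (adjusted p = 0.21), and in 5C-E against DMSO both fell, F7 by 2.12 ± 0.30 and F10 by 1.26 ± 0.19. In 5C-C, F7 was higher than in 5C by 0.85 ± 0.29 (adjusted p = 0.032), below the fold limit.

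In the contact system, which links injury to kinin release, 1 of 4 genes was called lower in 5C-C (10.5% of all genes) and in 5C-E (1.31%). That gene was Klkb1, with counts of 103 and 68 in DMSO, 49 and 63 in 5C, 0 and 8 in 5C-C, 2 and 0 in 5C-E, 90 and 77 in 5C-F, and 62 in 5C-S. Its level was 6.06% of that in 5C in 5C-C (95% exact interval 2.55 to 12.4) and 1.66% in 5C-E (0.199 to 6.15), both for counting error only. The fitted log2 fold changes of -3.95 ± 0.89 (adjusted p = 0.0025) and -5.83 ± 1.06 (0.0043) rest on those few counts. 5C-G held 30 and 30 counts, with no call. Exons of a readthrough transcript cover 43.2% of the exon bases of Klkb1.

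The kininogens Kng1 and Kng2, which carry bradykinin, are paralogs whose reads may be split between them. Kng2 was at 40.3 and 39.2 FPKM in DMSO, 57.0 and 48.7 in 5C, 31.1 and 39.4 in 5C-G, 89.0 and 83.5 in 5C-C, 45.3 and 41.7 in 5C-E, 91.5 and 89.6 in 5C-F, and 69.0 in 5C-S. Its 5C-C and 5C-F libraries were higher than all others, with log2 fold changes of 0.87 ± 0.18 (adjusted p = 0.0013) and 0.88 ± 0.18 (0.0068) against 5C, below the fold limit, and called rises of 1.21 ± 0.18 in both against DMSO. Kng1 was at 98.8 and 99.1 FPKM in DMSO, 113 and 99.8 in 5C, 57.4 and 70.4 in 5C-G, 111 and 96.8 in 5C-C, 72.5 and 60.6 in 5C-E, 167 and 172 in 5C-F, and 109 in 5C-S. It was higher in 5C-F than in 5C (0.77 ± 0.18, adjusted p = 0.013), and its 5C-C libraries overlapped with 5C. F12, factor XII, ranged from 20.9 to 82.5 FPKM, with a log2 fold change of 0.97 ± 0.23 in 5C-F (adjusted p = 0.016).

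Among anticoagulant and fibrinolytic genes, Plg showed the most precise change. Plg encodes plasminogen, the precursor of plasmin, and was at 45.8 and 42.9 FPKM in DMSO, 38.3 and 30.04 in 5C, 21.0 and 17.8 in 5C-G, 7.0 and 5.64 in 5C-C, 14.0 and 14.0 in 5C-E, 49.5 and 47.8 in 5C-F, and 29.4 in 5C-S. The 5C-C libraries lay lowest, then 5C-E, then 5C-G, without overlap. It fell by 2.27 ± 0.18 in 5C-C (adjusted p = 7.9e-07) and by 1.35 ± 0.17 in 5C-E (0.00017), both called under all 12 settings. The direct comparison of 5C-C with 5C-E gave -0.92 ± 0.17 (adjusted p = 0.0012), and 5C-G was called above 5C-C by 1.59 ± 0.17 (1.3e-05). Against DMSO, Plg fell in 5C-G, 5C-C and 5C-E, by 1.14, 2.73 and 1.81.

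Cpb2, a carboxypeptidase that slows fibrinolysis, was highest in 5C. It was at 26.2 and 26.4 FPKM in DMSO, 69.7 and 64.5 in 5C, 20.3 and 17.5 in 5C-G, 47.9 and 41.6 in 5C-C, 35.6 and 27.8 in 5C-E, 60.6 and 41.2 in 5C-F, and 49.4 in 5C-S. It rose by 1.27 ± 0.21 with 5C (adjusted p = 0.00052), fell by 1.70 ± 0.21 in 5C-G (2.4e-05) and fell by 1.15 ± 0.20 in 5C-E (0.0037). Hrg, histidine-rich glycoprotein, was at 13.8 and 15.5 FPKM in DMSO, 25.3 and 21.4 in 5C, 6.28 and 9.84 in 5C-G, 8.39 and 10.8 in 5C-C, 11.2 and 7.13 in 5C-E, 19.6 and 18.7 in 5C-F, and 18.6 in 5C-S. It fell by 1.37 in 5C-G, 1.11 in 5C-C and 1.42 in 5C-E, with adjusted p-values of 0.0015, 0.0038 and 0.006.

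Proc and Pros1 encode protein C and its cofactor protein S. Proc was at 15.5 and 13.3 FPKM in DMSO, 13.7 and 11.1 in 5C, 8.28 and 10.5 in 5C-G, 10.1 and 11.9 in 5C-C, 6.69 and 7.76 in 5C-E, 21.2 and 32.8 in 5C-F, and 12.7 in 5C-S. Both 5C-F libraries were above all others but differed from each other. Proc rose by 1.21 ± 0.23 in 5C-F (adjusted p = 0.0043). Pros1 was at 31.0 and 32.1 FPKM in DMSO, 34.1 and 29.6 in 5C, 30.9 and 20.9 in 5C-G, 33.0 and 24.7 in 5C-C, 39.3 and 41.6 in 5C-E, 25.3 and 20.4 in 5C-F, and 31.4 in 5C-S. It was highest in 5C-E, and its adjusted p was at least 0.23 in all 5 main comparisons.

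Ambp and the Itih genes encode the light chain bikunin and the heavy chains of the inter-alpha-trypsin inhibitors. Ambp was at 224 and 224 FPKM in DMSO, 335 and 314 in 5C, 269.8 and 402 in 5C-G, 517 and 582 in 5C-C, 276 and 305 in 5C-E, 527 and 581 in 5C-F, and 389 in 5C-S. Its 5C-C and 5C-F libraries exceeded all others, at 0.93 ± 0.20 (adjusted p = 0.0018) and 0.87 ± 0.20 (0.013) against 5C, and both were called against DMSO (1.39 and 1.33). Itih2 was at 38.1 and 38.5 FPKM in DMSO, 49.9 and 38.2 in 5C, 21.8 and 21.8 in 5C-G, 57.9 and 38.4 in 5C-C, 45.3 and 43.9 in 5C-E, 90.1 and 86.8 in 5C-F, and 47.1 in 5C-S. It rose by 1.11 ± 0.19 in 5C-F (adjusted p = 0.0023), and between 5C-G and 5C-F it differed by -1.98 ± 0.20 (5.4e-06). Itih3 was at 82.2 and 82.6 FPKM in DMSO, 111 and 94.9 in 5C, 56.0 and 64.2 in 5C-G, 98.1 and 83.2 in 5C-C, 77.3 and 68.5 in 5C-E, 98.5 and 94.1 in 5C-F, and 91.6 in 5C-S. Its neighbour Itih4 was at 65.0 and 68.0 FPKM in DMSO, 83.2 and 73.5 in 5C, 38.8 and 43.9 in 5C-G, 66.0 and 53.7 in 5C-C, 57.1 and 51.5 in 5C-E, 72.7 and 75.8 in 5C-F, and 68.0 in 5C-S. Both were lowest in 5C-G. They had log2 fold changes of -0.63 and -0.78 in 5C-G (adjusted p = 0.012 and 0.0032) and of 0.01 and 0.02 in 5C-F. Itih1 was at 3.94 and 4.49 FPKM in DMSO, 5.75 and 4.19 in 5C, 3.90 and 4.26 in 5C-G, 3.04 and 2.84 in 5C-C, 3.70 and 2.68 in 5C-E, 6.49 and 6.76 in 5C-F, and 4.66 in 5C-S. It was highest in 5C-F and was not called in the 5 main comparisons.

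Hpx was the 1 gene of the 45 called higher in 5C-C against 5C in the main test. Against DMSO, 9 of the 45 were called higher in 5C-C. With an offset for length and GC content, Fgb (1.16) and Kng2 (1.05) were the genes called higher against 5C in its place, and without 5C-C A Ambp (1.05) was called higher as well. It was at 376 and 344 FPKM in DMSO, 600.1 and 675 in 5C, 579 and 771 in 5C-G, 1393 and 1368 in 5C-C, 421 and 534 in 5C-E, 1015 and 925 in 5C-F, and 889.8 in 5C-S. The 5C-C libraries stood above all others, and the DMSO libraries below. Hpx rose by 1.28 ± 0.19 in 5C-C (adjusted p = 0.00015). The difference between 5C-C and 5C-E was 1.77 ± 0.20 (adjusted p = 0.00016), and against DMSO the rise in 5C-C was 2.03 ± 0.20 (1.7e-06). With an offset for length and GC content the difference from 5C was 0.74 and was no longer called.

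Ahsg and its paralog Fetub, the fetuins, lie next to each other. Ahsg was at 738 and 697 FPKM in DMSO, 692 and 611 in 5C, 428 and 547 in 5C-G, 524 and 486 in 5C-C, 311 and 303 in 5C-E, 1169 and 1191 in 5C-F, and 567 in 5C-S. It was lowest in 5C-E and highest in 5C-F, without overlap, and fell by 1.15 ± 0.17 in 5C-E (adjusted p = 0.00075). In 5C-F its log2 fold change was 0.96 ± 0.17 (adjusted p = 0.0029), just below the fold limit. Fetub was at 17.5 and 16.2 FPKM in DMSO, 32.0 and 25.3 in 5C, 14.5 and 22.2 in 5C-G, 41.6 and 36.6 in 5C-C, 19.0 and 15.6 in 5C-E, 48.8 and 41.3 in 5C-F, and 26.5 in 5C-S. Its 5C-F and 5C-C libraries were above all others but overlapped each other, with log2 fold changes of 0.76 (adjusted p = 0.044) and 0.61 (0.046). Another annotated gene covers 27.6% of its exon bases. Vtn, vitronectin, which inhibits the terminal complement pathway and binds cells to matrix, was at 216 and 199 FPKM in DMSO, 229 and 238 in 5C, 124 and 162 in 5C-G, 129.99 and 143 in 5C-C, 89.6 and 86.5 in 5C-E, 315 and 326 in 5C-F, and 172 in 5C-S. It was lowest in 5C-E and highest in 5C-F, without overlap. It fell by 1.48 ± 0.19 in 5C-E (adjusted p = 0.00014).

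The removals were then compared directly, over 6 pairs, to test the differences themselves. 5C-F and 5C-E stood farthest apart, with 23 of the 45 genes called higher in 5C-F and none lower, where 4.45% of all tested genes were called higher and 4.29% lower. They included F2 (1.92 ± 0.16), Plg (1.97 ± 0.18), Proc (2.06 ± 0.24), Vtn (2.03 ± 0.19) and Ahsg (2.11 ± 0.18). Between 5C-G and 5C-F, 19 genes were called lower in 5C-G and none higher (4.27% and 3.76% of all genes), and between 5C-C and 5C-F, 15 were lower in 5C-C and none higher (5.26% and 4.92%). 5C-C against 5C-E gave 8 higher and 1 lower (6.33% and 7.34%). The 8 were Hpx, F7, Fetub, Kng2, Ambp, F10, Mbl1 and Fgg, and the lower gene was F13b. 5C-G against 5C-C gave 5 higher (C6, C8a, F13b, Klkb1 and Plg) and 9 lower, among them the 3 fibrinogen genes and C3, where 4.14% and 3.21% of all genes were called. 5C-G against 5C-E gave 4 higher and 3 lower (5.19% and 4.12%), the lower being C3, Fga and Fgb. Cell type markers differed between the same groups. In 5C-F against 5C-E, 5 of 7 hepatocyte markers (median 1.34), 4 of 8 macrophage markers (1.22) and 1 of 4 cholangiocyte markers were higher, 1 of 8 stellate and fibroblast markers was higher and 3 were lower, and 1 of 6 endothelial markers was lower. In 5C-G against 5C-F, 4 hepatocyte markers were lower and 1 higher (median -1.61), and 3 macrophage markers were higher (1.12). In 5C-G against 5C-C, 6 macrophage markers (2.27) and 1 hepatocyte marker (0.34) were higher. In 5C-G against 5C-E, 6 macrophage markers were higher (2.59), with 3 hepatocyte markers higher and 1 lower (0.86). In 5C-C against 5C-F, 3 hepatocyte markers (-0.79) and 3 macrophage markers (-1.16) were lower, and in 5C-C against 5C-E 1 hepatocyte marker was higher (0.09) and 1 macrophage marker lower (0.56). Over the last 5 pairs the stellate, endothelial and cholangiocyte lists had 0 to 3 calls each in either direction. Their part was not tested.

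Against the solvent, the removals left different remainders. In 5C-G against DMSO, 6 genes were called lower and none higher (2.72% and 3.11% of all genes), namely F5, F11, Hc, F9, Plg and C4b. In 5C-C against DMSO, 9 were higher and 10 lower (10.4% and 11.7%). In 5C-E against DMSO, 15 were lower and none higher (3.68% and 2.41%). In 5C-F against DMSO, 7 were higher and F7 was lower (3.18% and 4.22%), and the 7 were C8g, Fgb, Kng2, Ambp, Itih2, Fetub and Hpx. F9 fell against DMSO in 5C-G, 5C-C and 5C-E, by 1.41, 1.60 and 1.31, and in 5C-F its log2 fold change was 0.22 ± 0.25. These 4 comparisons share the DMSO libraries. Cell type markers also differed from DMSO. Of the 8 macrophage markers, 6 were called lower in both 5C-C (median -2.45) and 5C-E (-2.81). In 5C-F 5 of them were lower (-1.31), and in 5C-G none was called (-0.47). Of the 7 hepatocyte markers, 4 were called lower in each of 5C-G (median -1.02), 5C-C (-1.53) and 5C-E (-1.15). In 5C-F 1 hepatocyte marker was lower (median 0.36). Of the 4 cholangiocyte markers, 3 were higher in 5C-F, 2 in 5C-C, 1 in 5C-E and none in 5C-G. The stellate and endothelial lists had 0 to 2 calls each in either direction. The part of these markers was not tested.

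For Salidroside there was a single library, so no test was made. Differences from the mean of 5C were taken on log2(CPM + 1), a scale that damps low genes. On it none of the 45 genes differed by more than 1, where 1.39% of all tested genes did, and the median difference was -0.13. Cfb, with 10 counts against 20 and 35 in 5C lay at -0.51 on this scale, and its FPKM was 0.104 against 0.211 and 0.403. In FPKM, 24 genes were below both 5C libraries, 14 between them and 7 above, where 35.5% of all tested genes were below and 40.3% above. The lowest differences on the same scale were those of F9 (-0.90), Hc (-0.87), F5 (-0.85) and C4bp (-0.81), and the highest was that of Hpx (0.47).

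Base composition moved with the fold changes. Across all genes with a transcript sequence, the Spearman correlation between GC content and log2 fold change was -0.18 for 5C against DMSO, and among the removals it reached 0.41 for 5C-C, 0.35 for 5C-G, 0.32 for 5C-E and, lowest, 0.26 for 5C-F. Over the 45 genes it was -0.13, 0.39, 0.54, 0.20 and 0.36 in the same order, a description across genes that share libraries. Genes called lower had a median GC content of 45.01% in 5C-G, against 51.88% for those not called, 45.5% against 50.7% in 5C-C, and 46.2% against 49.3% in 5C-E. When an offset for length and GC content was fitted to each library, 4 genes were called in 5C against DMSO. The removals then gave 14 calls for 5C-E, 12 for 5C-C, 11 for 5C-G and 1 for 5C-F. The offset ended the calls of C4bp, F13b, Fgb and Fgg in 5C-G, of C4bp and Hpx in 5C-C, and of Cpb2 in 5C-E. Fgg then stood at -0.98 and Fgb at -0.86 in 5C-G, and Cpb2 at -0.87 in 5C-E, all with adjusted p under 0.05 but short of the fold limit. It added lower calls of C8g (-1.37) and Vtn (-1.05) in 5C-G, of Vtn (-1.23) in 5C-C and of Proc (-1.03) in 5C-E. In 5C-C it also added higher calls of Fgb (1.16) and Kng2 (1.05), so the genes called higher there changed from Hpx to these. Of all settings, 6 of the 13 calls in 5C-G were made in each (F5, Hc, F9, Cpb2, Hrg and C3), 5 of 11 in 5C-C (F5, F13b, Hc, F9 and Plg) and 7 of 14 in 5C-E (C4bp, F2, F9, F10, Vtn, Ahsg and Plg). Without 5C A the calls of F11, F13b and Fga in 5C-G were lost, without 5C-G B those of F13b and Mbl2, and without 5C-C A that of Hrg in 5C-C.

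**Figure D4:**
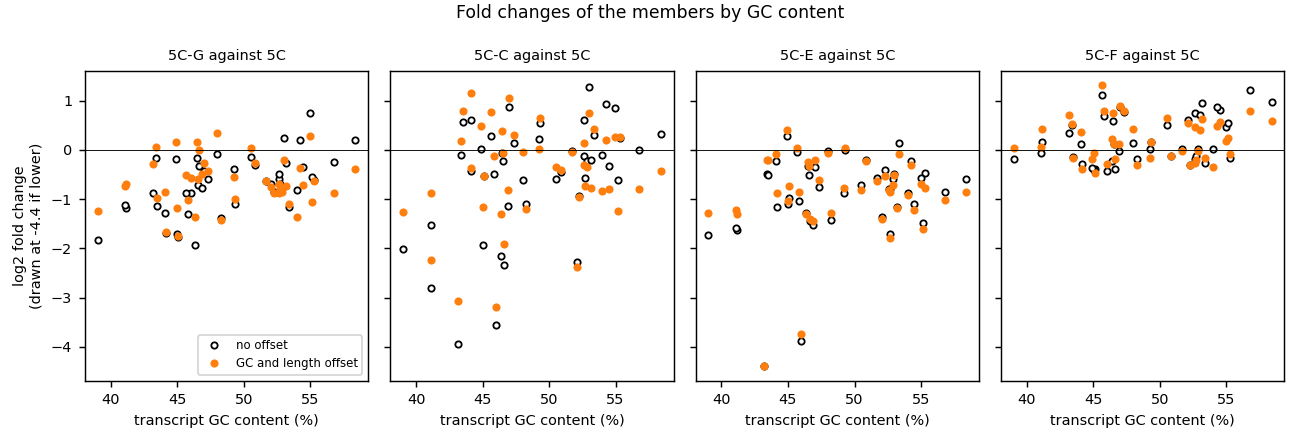
Log2 fold change against 5C (vertical axis) by GC content of the transcript in percent (horizontal axis) for the 45 genes in 4 removals, without an offset (open) and with an offset for length and GC content (orange). Without the offset the points rise with GC content in 5C-G, and F9, the gene of lowest GC content in the set, lies near -2 in 5C-G and 5C-C and nearer to -1 with the offset.

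Related genes of the same cascades gave another picture. Of 19 other complement genes, 7 fell and 1 rose with 5C (2.89% and 1.66% of all genes), 7 rose and 1 fell in 5C-G, 5 rose and 3 fell in 5C-C, 8 rose and 1 fell in 5C-F, and 1 rose in 5C-E. Those that fell with 5C were C1qa, C1qb, C1qc, Cfp, Fcna, C3ar1 and C5ar1, genes that macrophages are known to express, and both comparisons share the 5C libraries. The chain gene C1qa of C1q fell by 3.85 ± 0.39 with 5C and rose by 4.81 ± 0.41 in 5C-G. Macrophage markers moved the same way in both comparisons, as given above. In 5C-C, C1qa was at 233 and 510 FPKM against 58.7 and 58.2 in 5C. Of the 8 macrophage markers, 2 were called higher and 1 lower there (median 0.24). The part of these markers was not tested. Of 23 other coagulation and fibrinolysis genes, 1 rose and 1 fell with 5C, 4 rose and 4 fell in 5C-G, 1 rose and 6 fell in 5C-C, 3 fell in 5C-E, and 1 rose in 5C-F. The gene that fell with 5C was F13a1, the catalytic subunit of factor XIII, by 3.11 ± 0.23, and it rose by 2.04 ± 0.22 in 5C-G and by 1.23 ± 0.22 in 5C-F. The inhibitor of thrombin, Serpinc1 (antithrombin), rose by 1.25 ± 0.20 with 5C and fell by 1.81 ± 0.20 in 5C-G, fell by 3.04 ± 0.21 in 5C-C and fell by 2.58 ± 0.21 in 5C-E. Serpind1 (heparin cofactor II) fell by 1.03 in 5C-G, fell by 1.81 in 5C-C and fell by 1.63 in 5C-E. Of these removals, the thrombin precursor F2 fell in 5C-E. For each of these comparisons the share of all genes called is given above.

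Of 8 other acute phase proteins, 3 rose and 1 fell with 5C, 3 rose in 5C-G, 4 rose in 5C-C and 1 fell in 5C-E. Among all genes, 1.66% rose and 2.89% fell with 5C, 7.47% rose in 5C-G, 9.65% rose in 5C-C and 1.31% fell in 5C-E. In 5C-C, Saa3 rose by 3.99 ± 0.41, Orm1 by 1.34 ± 0.25 and Lcn2 by 1.10 ± 0.20. Hpx and the fibrinogen genes were highest in that group. Saa3 was the listed gene that fell with 5C. It was at 107 and 105 FPKM in DMSO, 13.2 and 21.1 in 5C, and 125 and 358 in 5C-C. In 5C-G, where the fibrinogen genes were lowest, Saa3 was also above 5C, at 88.6 and 111 FPKM. Haptoglobin (Hp) had a log2 fold change of 0.88 ± 0.16 in 5C-C and fell by 1.03 ± 0.16 in 5C-E. Of 6 genes of the interleukin-6 pathway, 2 rose and 1 fell in 5C-C, 1 rose in 5C-E and 1 fell in 5C-F, where 9.65% and 10.5%, 0.654% and 2.15% of all genes did. In 5C-C the cytokine gene Il6 rose by 1.76 ± 0.63 and Socs3, a feedback target of the receptor, by 1.71 ± 0.27, and the receptor gene Il6ra fell by 1.17 ± 0.20. Socs3 rose by 1.16 ± 0.26 in 5C-E, and Il6 fell by 2.31 ± 0.69 in 5C-F. The Il6 results rest on few counts, 46 and 30 in 5C, 86 and 192 in 5C-C, and 4 and 14 in 5C-F. Transcription factors known to bind plasma protein genes were also examined. In 5C-G, Hnf4a fell by 1.05 ± 0.18, Foxa1 by 1.94 ± 0.38 and Onecut1 by 4.15 ± 0.79, the last on 2 and 4 counts in 5C-G, and Cebpb rose by 1.34 ± 0.28. In 5C-C, Cebpb rose by 1.48 ± 0.28. Cebpa fell by 1.04 ± 0.19 with 5C, and Foxa3 rose by 1.17 ± 0.28 in 5C-F.

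**Figure D5:**
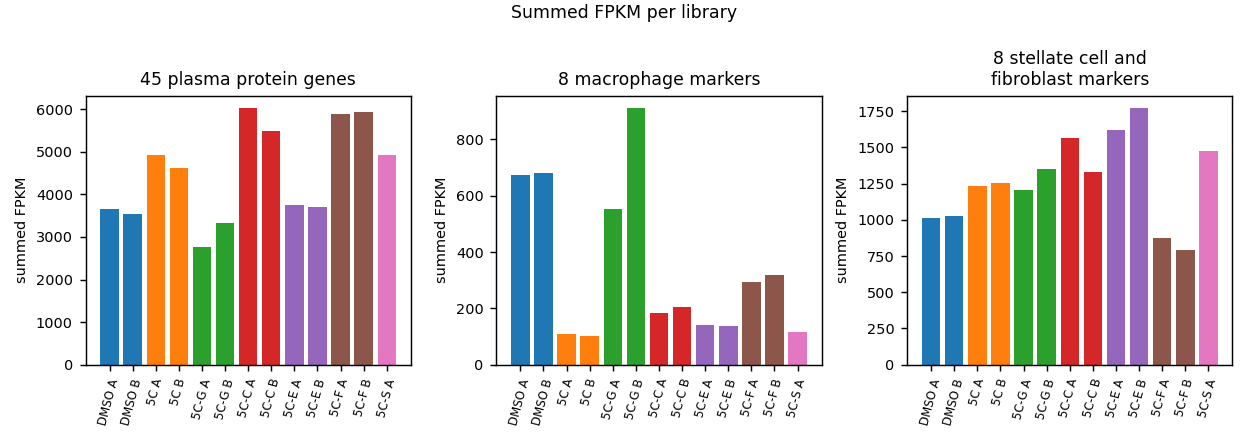
Summed FPKM (bars from 0) per library of the 45 plasma protein genes, of the 8 macrophage markers and of the 8 stellate cell and fibroblast markers. The plasma protein sum is lowest in 5C-G and highest in 5C-C A, whereas the macrophage sum is highest in 5C-G B and below 110 FPKM in both 5C libraries.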

How the data were processed

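RNA-seq was available for 13 libraries of dHeps. The authors mapped paired-end reads to GRCm39, and the submitters' processing notes name featureCounts, Subread and DESeq2. The versions of featureCounts and Subread, the aligner, the release of the annotation and how strand was handled are not given in the sources used here. The deposited counts were whole reads per gene, not normalized, and the FPKM values were deposited by the authors and used only as levels and for alternatives. Groups came from the sample labels.

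Counts were tested with edgeR 4.0.16 (R 4.3.3), with its quasi-likelihood test, TMM factors and, for the filter, filterByExpr at a minimum count of 10. A single fit of group means held all 13 libraries, left 6 residual degrees of freedom and had a common BCV of 0.261. The libraries of a group differed to unequal degrees. The chi-square of a pair's counts per degree of freedom was 8.01 in DMSO, 14.1 in 5C and 28.9 in 5C-E. It was 62.9 in 5C-F, 75.7 in 5C-C and 86.6 in 5C-G. The fit shares its estimate of spread over the groups, so the p-values do not reflect these differences. DESeq2, the tool of the authors, served as an alternative. Adjusted p-values are Benjamini-Hochberg over the 19884 genes tested, and values after ± are SE of the log2 fold change. The lone 5C-S library gives no information on spread. Intervals of count ratios are exact at 95% and cover counting error only, as reads carry no molecular identifiers. The test was checked on simulated counts.

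GC content, lengths, exon overlaps and the 250-base upstream windows came from GENCODE vM39 on GRCm39. A GC content was had for 99.51% of the genes tested. Alternatives were DESeq2 1.42.0, total counts in place of TMM, no filter, at least 10 counts in every library, limma 3.58.1 on log2(FPKM + 1) and log2(FPKM + 0.1), an offset for GC content and length, only the groups compared, and leaving out each library.

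The 45 genes, their roles and the other lists were chosen with earlier results of these data known. All 45 genes are accounted for by role. Values per library (counts for C6 and Klkb1) are given for the 2 genes of highest mean FPKM in a role, for up to 5 called genes of largest change in each direction of the 5 main comparisons, and for their paralogs or partners. Hrg, F11 and Vtn were added after their values were seen. Of the lists, Cfd and Tf were not found among the genes of the tables. A gene of the transcription factor list is not reported here. Stat3 and Hnf4a each belong to 2 lists.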

Additional observations from a re-analysis of the deposited data

How the results depend on the processing

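Counts of called genes among the 45 stayed within 1.5 times the main count under DESeq2, total counts and no filter. Total counts moved the median of all genes by up to -0.15 among the comparisons with 5C (5C-C). On leaving out each library in turn, the number ran from 2 to 4 for 5C against DMSO (main 5), from 8 to 12 for 5C-E against 5C (main 14) and from 0 to 3 for 5C-F against 5C (main 2). The offset for GC content and length gave 1 gene for 5C-F against 5C and 4 for 5C-G against 5C-E (main 7). With limma on log2(FPKM + 1), which shrinks low genes by construction, the number was 9 for 5C-E against 5C, 12 for 5C-C against DMSO (main 19), 9 for 5C-E against DMSO (main 15), 3 for 5C-C against 5C-E (main 9), 15 for 5C-F against 5C-E (main 23) and 3 for 5C-G against 5C-E. Requiring at least 10 counts in every library gave 4 for the latter. Fitting only the groups compared gave 8 for 5C-G against 5C-C (main 14), and the cause was not tested.

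Reversals arose in direct comparisons of removals, none of them called. F5 between 5C-C and 5C-E was 0.011 with the offset (main -0.87), and Masp1 was 0.033 (main -0.57). On leaving out libraries, Klkb1 between 5C-C and 5C-E ran from -3.06 to 4.96, Cfb from -2.55 to 0.24, and Cfb between 5C-C and 5C-F from -2.66 to 0.15, all on few counts. No paired analysis was possible because the running numbers of the columns do not match the numbers in the sample titles. Depth limited the lowest genes most, and Cfb, at 3 to 35 counts, had an SE of 1.02 in 5C-C against 5C.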
